A study of Mus musculus with 6 samples.

Results

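Amino acid transporter genes of the Slc1a, Slc3a, Slc7a, Slc36a, Slc38a and Slc43a families were compared between mouse T cells co-cultured with ID8 cells that had been pretreated with cisplatin and T cells co-cultured with ID8 cells given PBS alone. ID8 is a mouse ovarian cancer cell line. The genes were taken by name from the protein-coding genes of the deposited expression table, leaving out Slc7a11, and numbered 42 of 54532 genes in the table. Of these, 41 are transporters or their partner chains. The other one, Slc7a6os, is named for its place on the opposite strand beside Slc7a6 and is not a transporter. It is counted as a member and is left out where shares of transporter transcripts are given.
There were 3 libraries with cisplatin-pretreated ID8 cells (40 µM cisplatin, the cisplatin group) and 3 with PBS-treated ID8 cells (the control group). The T cells came from spleens of C57BL/6 mice, were isolated with a pan T-cell kit and kept with IL-2, and were activated with anti-CD3/CD28 beads before co-culture. Both groups share all of these steps, and the sources name no other difference than the pretreatment of the ID8 cells. No library of T cells alone or of ID8 cells alone was used here, and the sources do not say that the 3 libraries of a group came from separate mice or cultures, so that p-values measure the spread between these libraries, which may be technical.

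Most amino acids cross the plasma membrane on carriers of these families. The Slc7a light chains reach the surface only when bound to a heavy chain, which is the CD98 heavy chain (Slc3a2) for LAT1 (Slc7a5) and its relatives. LAT1 exchanges internal glutamine for leucine and other large neutral amino acids, glutamine enters through ASCT2 (Slc1a5) and the sodium-coupled SNAT carriers of the Slc38a family, and arginine enters through the CAT carriers. In activated T cells these carriers are known to be induced and to feed the mTORC1 kinase complex, which senses leucine and arginine.

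The levels were FPKM, the fragments on a gene divided by its length and by a library factor, so that they can be set side by side between genes. Rebuilt from the FPKM, the reads on genes ranged from 30606569 to 32169496 per library. limma was run on log2(FPKM + 0.1) for the 15874 genes whose mean reached 0.5 FPKM, a scale that understates the change of genes with low levels. Here a gene rose or fell when its Benjamini-Hochberg adjusted p-value was under 0.05, and was called when its log2 fold change was also at least 1 or at most -1.
The libraries held transcripts of several cell types, and these moved with the groups. All 25 T-cell identity genes were higher in the cisplatin group (log2 fold changes 0.19 to 0.89, median 0.61), with a summed level of 2059.7 to 2189 FPKM in control and 3259.8 to 3334 FPKM in cisplatin libraries. The defining genes Cd3e and Trac were present in every library, at means of 31.9 and 138 FPKM in control and 39.7 and 249 FPKM with cisplatin. Of 21 tested epithelial and mesothelial markers of ID8 cells, 20 fell (median log2 fold change -2.27), and their summed level over 25 genes went from 1549.5 to 1615 FPKM down to 249 to 258 FPKM. Among the defining ID8 markers, Krt7 and Muc16 were near 0 in both groups, with means of 0.171 and 0.168 FPKM in control, while Krt19 had 646 FPKM in control and 52.9 FPKM with cisplatin. The 10 B-cell markers summed to 1667 to 1750.4 FPKM in control and 3592 to 3669.7 FPKM with cisplatin, and 8 of them rose and 1 fell. The 12 myeloid markers summed to 98.5 to 103 and 167 to 188 FPKM, and 8 of the 10 tested rose and 1 fell. In such bulk samples fewer cells of a type and less RNA in each cell cannot be told apart. The part of these shifts in the results below was not tested.

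Of the 42 genes, 23 passed the filter on low levels. Among them 8 fell, which is 34.8% where 29.0% of all tested genes fell, and 8 rose, where 27.5% of all tested genes rose. The called genes were Slc7a2 and Slc43a3, both lower, and Slc7a8, which was higher. As shares, 8.70% of the tested members were called lower and 4.35% higher, against 12.8% and 4.11% of all tested genes. The median log2 fold change was 0.08 over the 23 members and 0.03 over all tested genes. These shares were near those of all tested genes, and the members differed widely among themselves, from -1.90 to 1.27.
The libraries of the groups did not overlap for 9 members that were lower and 9 that were higher with cisplatin, so for 18 of 23, where 64.2% of all tested genes did not overlap. Direction depended on how libraries were scaled. Centring each library on the 25 T-cell identity genes (the T-centred scale), which assumes that these did not change, lowered every log2 fold change by about 0.58 and left 16 members that fell and 3 that rose by limma. On that scale 66.4% of all tested genes fell and 4.65% rose. It gave 5 members called lower and 0 called higher, where 23.8% and 0.876% of all tested genes were called. Called lower beside Slc7a2 and Slc43a3 were Slc1a4 (-1.28), Slc7a6 (-1.08) and Slc36a4 (-1.06). The 3 members that stayed higher were Slc1a5, Slc7a5 and Slc7a8. With quantile normalization 7 members fell and 12 rose, where 24.2% and 37.1% of all tested genes did, and 1 was called lower and 2 higher, against 11.3% and 6.17%.

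**Figure D1:**
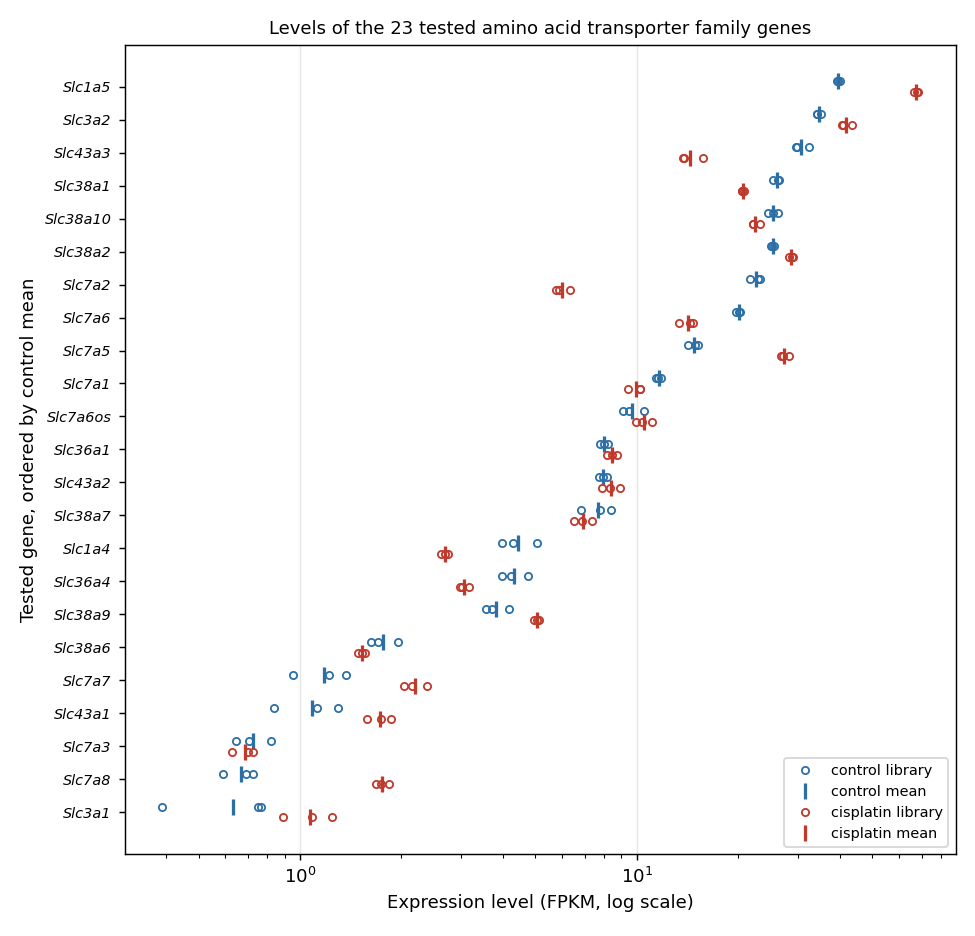
Level of each tested gene in every library (FPKM, log scale), ordered by the control mean. Open circles are libraries, ticks are group means (n = 3 each), blue for control and red for cisplatin. Slc1a5 is the highest in both groups, and Slc7a2 and Slc43a3 stand to the left of their control values with cisplatin.

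The highest level in both groups was that of Slc1a5, which encodes ASCT2, a sodium-dependent exchanger of glutamine and other neutral amino acids (ENSMUSG00000001918, chromosome 7 from 16781340 to 16798274 of mm10, plus strand). It had 39.6, 40.1 and 39.2 FPKM in the control libraries and 67.9, 68.2 and 66.7 FPKM in the cisplatin libraries. The cisplatin libraries all lay above the control libraries, and the spread within each group was small beside the gap between them. The mean went from 39.6 ± 0.437 to 67.6 ± 0.798 FPKM (SD, n = 3 each), and the log2 fold change was 0.77 (SE 0.03, limma adjusted p = 1.3e-06). This increase was 1.71-fold and so under the 2-fold threshold of a call. On the T-centred scale the log2 fold change was 0.19 (limma adjusted p = 0.0018).
The relative of ASCT2 in the same family, ASCT1 (Slc1a4), exchanges alanine, serine and cysteine and went the other way. Slc1a4 (chromosome 11 from 20302180 to 20332713) had 5.07, 3.99 and 4.29 FPKM in control and 2.69, 2.62 and 2.75 FPKM with cisplatin. The groups did not overlap, and its log2 fold change was -0.70 (SE 0.10, limma adjusted p = 0.0011). The ratio of Slc1a5 to Slc1a4 within a library does not change when the library is multiplied by a factor. It went from 9.0 ± 1.12 to 25.2 ± 0.888 (SD, n = 3 each).

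Glutamine and small neutral amino acids also enter through the system A carriers SNAT1 (Slc38a1) and SNAT2 (Slc38a2), which lie 44.5 kb apart on chromosome 15. They changed in opposite directions on the FPKM as deposited. Slc38a1 (chromosome 15 from 96571418 to 96642913) had 26.3, 26.5 and 25.3 FPKM in control and 20.5, 20.9 and 20.5 FPKM with cisplatin (log2 fold change -0.33, SE 0.03, limma adjusted p = 1.7e-04). On the T-centred scale its log2 fold change was -0.91. Slc38a2 (chromosome 15 from 96687392 to 96699730) had 25.1, 25.6 and 25.1 FPKM in control and 28.9, 28.3 and 29.0 FPKM with cisplatin. It rose by a log2 fold change of 0.19 (SE 0.03, limma adjusted p = 0.0018) and reversed to -0.40 on the T-centred scale. The ratio of Slc38a2 to Slc38a1 was 0.971 ± 0.0193 in control and 1.39 ± 0.0297 with cisplatin (SD, n = 3 each). By FPKM Slc38a2 was thus above Slc38a1 only in cisplatin libraries, but this order rests on the deposited lengths (8838 and 17236 bases). Slc38a1 had more rebuilt reads than Slc38a2 in every library. The third carrier of this system, Slc38a4, had at most 6 rebuilt reads in a library and was not tested. The ratio of Slc1a5 to Slc38a1 went from 1.52 ± 0.0232 to 3.27 ± 0.0302 (SD, n = 3 each).
The system N carriers were nearly absent. Slc38a3 had 0 to 6 rebuilt reads per library, and Slc38a5 had 0 reads in all 6.

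CD98 heavy chain (Slc3a2) was the transcript with the next highest level after Slc1a5 in both groups. Slc3a2 (ENSMUSG00000010095, chromosome 19 from 8706882 to 8723369, minus strand) had 35.3, 34.3 and 34.3 FPKM in control and 40.6, 43.4 and 40.9 FPKM with cisplatin. The groups did not overlap, and the log2 fold change was 0.27 (SE 0.04, limma adjusted p = 9.0e-04), which reversed to -0.32 on the T-centred scale. The other heavy chain, rBAT (Slc3a1), known from the cystine carrier of kidney, had 0.765, 0.390 and 0.749 FPKM in control and 1.25, 0.889 and 1.08 FPKM with cisplatin. Its log2 fold change of 0.71 did not pass the test (95% interval 0.01 to 1.41, limma adjusted p = 0.080), although its groups did not overlap. It passed with quantile normalization (0.89, limma adjusted p = 0.039) and with limma's voom on rebuilt reads (0.88, adjusted p = 0.021). It also passed among protein-coding genes alone (limma adjusted p = 0.027). On the T-centred scale it was 0.13 and did not pass (limma adjusted p = 0.72). Exons of Slc3a1 share 601 bases with Prepl on the other strand, and whether the counting used strand is not stated, so its level is uncertain. Its partner light chain b0,+AT (Slc7a9) had 0 reads in all 6 libraries.

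The 4 tested light chains that pair with CD98 heavy chain moved in both directions. Slc7a5, which encodes LAT1 (ENSMUSG00000040010, chromosome 8 from 121881150 to 121907694, minus strand), had 14.9, 15.2 and 14.2 FPKM in control and 28.2, 26.7 and 27.1 FPKM with cisplatin. Every cisplatin library lay above every control library, and the fold of the means was 1.85, just under the threshold of a call (log2 fold change 0.89, SE 0.04, limma adjusted p = 5.1e-06). On the T-centred scale the log2 fold change was 0.31 (limma adjusted p = 0.0015).
Slc7a6 encodes y+LAT2, which exchanges cationic for neutral amino acids (ENSMUSG00000031904, chromosome 8 from 106168857 to 106198706, plus strand). It had 20.1, 20.3 and 19.7 FPKM in control and 14.4, 13.4 and 14.6 FPKM with cisplatin and fell (log2 fold change -0.50, SE 0.04, limma adjusted p = 1.1e-04). In control libraries its transcript was thus above that of LAT1 and in cisplatin libraries below it. The ratio of Slc7a5 to Slc7a6 was 0.738, 0.750 and 0.718 in control and 1.96, 2.0 and 1.85 with cisplatin, a 2.63-fold difference of the means. The neighbour Slc7a6os, 2.01 kb away on the other strand, had 9.48, 10.5 and 9.10 FPKM in control and 9.94, 11.1 and 10.4 FPKM with cisplatin. These ranges overlapped (log2 fold change 0.11, 95% interval -0.06 to 0.28, limma adjusted p = 0.22, and -0.47 on the T-centred scale). Slc7a6os rose with quantile normalization (0.23, limma adjusted p = 0.023) and with limma's voom on rebuilt reads (0.20, adjusted p = 0.017).

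**Figure D2:**
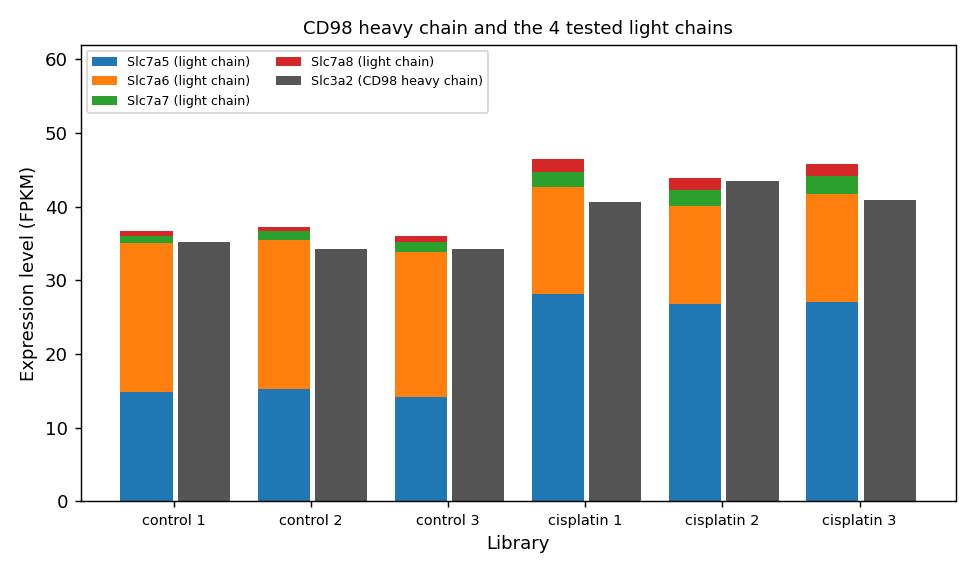
Levels (FPKM) of the 4 tested light chains, stacked, beside that of CD98 heavy chain (Slc3a2) in each library, control on the left and cisplatin on the right. The stack and the heavy chain are of about the same height in every library, while Slc7a6 is the larger piece in control and Slc7a5 the larger piece with cisplatin.

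The 2 other tested light chains had low levels and were higher with cisplatin. They lie 304 kb apart on chromosome 14. LAT2 (Slc7a8), an exchanger of neutral amino acids (ENSMUSG00000022180, chromosome 14 from 54722209 to 54781946), had 0.725, 0.593 and 0.690 FPKM in control and 1.83, 1.68 and 1.74 FPKM with cisplatin. These values rest on 89 to 109 rebuilt reads per control library and 279 to 297 per cisplatin library, and the groups were far apart. It was the only member called higher, with a 2.62-fold difference of the means (log2 fold change 1.27, SE 0.16, limma adjusted p = 5.0e-04). The call was lost with a pseudocount of 1 (0.72) and on the T-centred scale (0.69), since the log2 fold change then lay under 1. The light chain y+LAT1 (Slc7a7), known from epithelia and macrophages, had 0.955, 1.22 and 1.37 FPKM in control and 2.04, 2.15 and 2.38 FPKM with cisplatin. Its log2 fold change was 0.85 (SE 0.16, limma adjusted p = 0.0038) and 0.27 on the T-centred scale (limma adjusted p = 0.15). Exons of Slc7a7 share 232 bases with Oxa1l on the other strand, which had 14.6 FPKM in control and 18.9 FPKM with cisplatin, so part of the reads may not be its own. Myeloid markers, which were higher with cisplatin as given above, moved with both genes, and their part was not tested.
The ratio of the summed level of these 4 light chains to Slc3a2 was 1.04, 1.09 and 1.05 in control and 1.15, 1.01 and 1.12 with cisplatin, and the groups overlapped. The means were 1.06 ± 0.0253 and 1.09 ± 0.0709 (SD, n = 3 each), and 3 libraries against 3 are too few to show from this that the ratio did not change. Slc7a11 was left out of the members and so is not part of the summed level. The remaining light chains among the members were untested. Slc7a12 and Slc7a13 had 0 reads in all libraries and Slc7a10 had at most 6 in a library.

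Among the 23 tested genes the largest log2 fold change was in the cationic carriers. Slc7a2, which encodes the arginine and lysine carrier CAT2 (ENSMUSG00000031596, chromosome 8 from 40862396 to 40922308, plus strand), had 23.2, 22.9 and 21.7 FPKM in control and 6.33, 5.74 and 5.89 FPKM with cisplatin. Its mean was 22.6 ± 0.805 FPKM in control and 5.99 ± 0.305 FPKM with cisplatin (SD, n = 3 each), 3.77-fold lower (log2 fold change -1.90, SE 0.05, limma adjusted p = 5.2e-07). The gene stayed called lower in all alternatives, with log2 fold changes of -2.48 to -1.76. CAT1 (Slc7a1), the carrier of the same substrates that most cells use, changed little on the FPKM as deposited. Slc7a1 (chromosome 5 from 148327410 to 148399904) had 11.6, 11.8 and 11.4 FPKM in control and 10.2, 9.38 and 10.2 FPKM with cisplatin (log2 fold change -0.22, SE 0.05, limma adjusted p = 0.0077). With quantile normalization it did not pass (-0.11, limma adjusted p = 0.11). On the T-centred scale its log2 fold change was -0.80 (limma adjusted p = 1.7e-05). The CAT2 transcript was thus above that of CAT1 in control libraries and below it with cisplatin. Their ratio was 2.0, 1.94 and 1.90 in control and 0.619, 0.612 and 0.578 with cisplatin, a 3.23-fold difference of the means. CAT3 (Slc7a3) had 0.629 to 0.820 FPKM over the 6 libraries and did not pass the test (log2 fold change -0.06, 95% interval -0.58 to 0.45), while on the T-centred scale it fell (-0.65, limma adjusted p = 0.035). The markers of ID8 cells fell with Slc7a2, by a median log2 fold change of -2.27, and their part in this result was not tested.

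**Figure D3:**
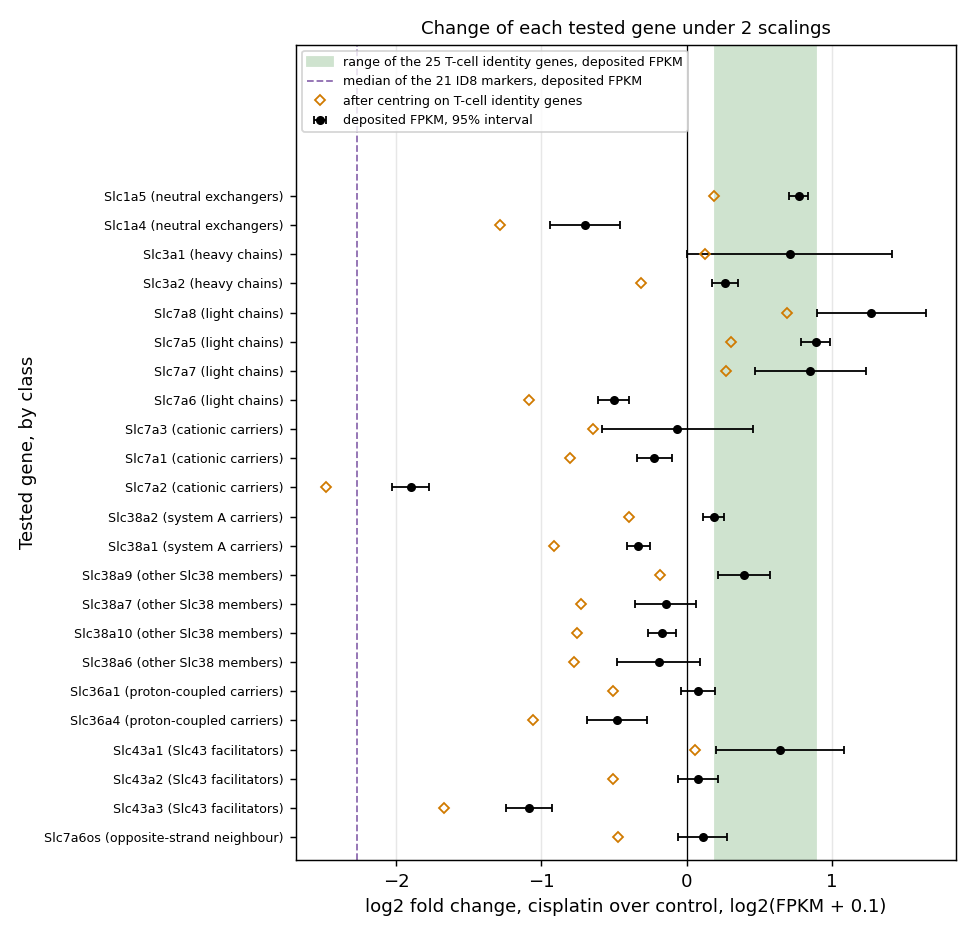
Log2 fold change (cisplatin over control) of each tested gene by class. Black points with 95% intervals from limma are on the FPKM as deposited and orange diamonds are on the T-centred scale. The green band is the range of the 25 T-cell identity genes (0.19 to 0.89) and the dashed line the median of the 21 tested ID8 markers (-2.27), both on the FPKM as deposited. Slc7a2 lies nearest to the dashed line, and Slc1a5, Slc7a5 and Slc7a7 are among the genes in the band.

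Among the Slc43a facilitators, Slc43a3 fell and its neighbour Slc43a1 rose. The genes lie 73.0 kb apart on chromosome 2. Slc43a3, known as a carrier of purine bases (ENSMUSG00000027074, chromosome 2 from 84936579 to 84958509, plus strand), had 32.5, 29.7 and 29.8 FPKM in control and 15.7, 13.8 and 13.7 FPKM with cisplatin. Its level in cisplatin libraries was about that of Slc7a6, while in control libraries it had been at place 3 among the members. The log2 fold change was -1.08 (SE 0.07, limma adjusted p = 1.6e-05), and with quantile normalization it was -0.998, which is outside the threshold of a call. LAT3 (Slc43a1), a facilitative carrier of large neutral amino acids, had 0.839, 1.12 and 1.29 FPKM in control and 1.74, 1.58 and 1.86 FPKM with cisplatin. It rose (log2 fold change 0.64, SE 0.18, limma adjusted p = 0.023), but not on the T-centred scale (0.06, limma adjusted p = 0.78), and without cisplatin replicate 1 or cisplatin replicate 3 it no longer passed (adjusted p = 0.062 and 0.075 from limma). LAT4 (Slc43a2), which carries similar substrates, had 7.72 to 8.17 FPKM in control and 7.90 to 8.89 FPKM with cisplatin. It shares 922 exonic bases with the antisense gene Gm45606. Its log2 fold change was 0.08 (95% interval -0.06 to 0.22, limma adjusted p = 0.31), and -0.51 on the T-centred scale. It rose with quantile normalization (0.21, limma adjusted p = 0.014) and with limma's voom on rebuilt reads (0.16, adjusted p = 0.0094).

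The remaining tested carriers of the Slc38a and Slc36a families had log2 fold changes from -0.48 to 0.39. SNAT9 (Slc38a9), the lysosomal arginine sensor upstream of mTORC1 (chromosome 13 from 112660751 to 112738749), had 4.17, 3.56 and 3.72 FPKM in control and 4.94, 5.05 and 5.11 FPKM with cisplatin. Its log2 fold change was 0.39 (SE 0.08, limma adjusted p = 0.0042) and reversed to -0.19 on the T-centred scale. The antisense gene Gm47827 overlaps it, sharing 182 exonic bases, and had 8.53 FPKM in control and 12.9 FPKM with cisplatin. SNAT7 (Slc38a7), a lysosomal glutamine carrier, had 6.83 to 8.40 FPKM in control and 6.51 to 7.34 FPKM with cisplatin and did not pass (log2 fold change -0.15, 95% interval -0.36 to 0.07), while on the T-centred scale it fell (-0.73, limma adjusted p = 4.3e-04). PAT1 (Slc36a1), a proton-coupled carrier of small amino acids found at the lysosome and the cell surface, had 7.79 to 8.20 FPKM in control and 8.14 to 8.74 FPKM with cisplatin (log2 fold change 0.08, 95% interval -0.04 to 0.19, and -0.50 on the T-centred scale). Slc36a1 rose with quantile normalization (0.21, limma adjusted p = 0.012) and with limma's voom on rebuilt reads (0.16, adjusted p = 0.030).
Its relative PAT4 (Slc36a4) fell from 4.31 ± 0.393 to 3.06 ± 0.10 FPKM (SD, n = 3 each), with a log2 fold change of -0.48 (limma adjusted p = 0.0031). SNAT10 (Slc38a10) had 26.2, 25.4 and 24.5 FPKM in control and 22.1, 23.2 and 22.2 FPKM with cisplatin (log2 fold change -0.17, SE 0.04, limma adjusted p = 0.010), and with limma's voom on rebuilt reads it did not pass (-0.09, adjusted p = 0.065). On the T-centred scale its log2 fold change was -0.75 (limma adjusted p = 1.1e-05). SNAT6 (Slc38a6) had 1.63 to 1.95 FPKM in control and 1.48 to 1.56 FPKM with cisplatin, and its log2 fold change of -0.19 did not pass (95% interval -0.48 to 0.09), while on the T-centred scale it fell (-0.77, limma adjusted p = 8.8e-04).

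On the FPKM as deposited the summed level of the 41 transporters overlapped between the groups, while the make-up differed. The sum was 299, 295 and 289 FPKM in control and 299.7, 297 and 295 FPKM with cisplatin. Unlike the shares, this sum changes when a library is multiplied by a factor, and the T-centred scale lowers each log2 fold change by about 0.58. Slc1a5 took 13.5 ± 0.214% of the sum in control and 22.7 ± 0.175% with cisplatin (SD, n = 3 each), and Slc7a5 took 5.01 ± 0.125% and 9.19 ± 0.210%. Slc43a3 took 10.4 ± 0.407% and 4.85 ± 0.338%, and Slc7a2 took 7.67 ± 0.139% and 2.01 ± 0.0920%. The 4 transcripts with the highest levels in cisplatin libraries, Slc1a5, Slc3a2, Slc38a2 and Slc7a5, made up 38.8 ± 0.409% of the sum in control and 55.6 ± 0.405% with cisplatin. In the order of levels over all 42 members, Slc7a6os included, Slc7a5 went from place 9 to place 4, Slc43a3 from place 3 to place 7 and Slc7a2 from place 7 to place 14.
Such shares, like the ratios given above, do not change when a whole library is multiplied by a factor, but quantile normalization can change them. In all, 9 ratios between members were computed, chosen after the levels had been seen. In 8 of them the groups were separate (exact permutation test, two-sided, p = 0.1, the smallest that 3 libraries against 3 allow, and 0.11 after Benjamini-Hochberg adjustment over the 9).

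**Figure D4:**
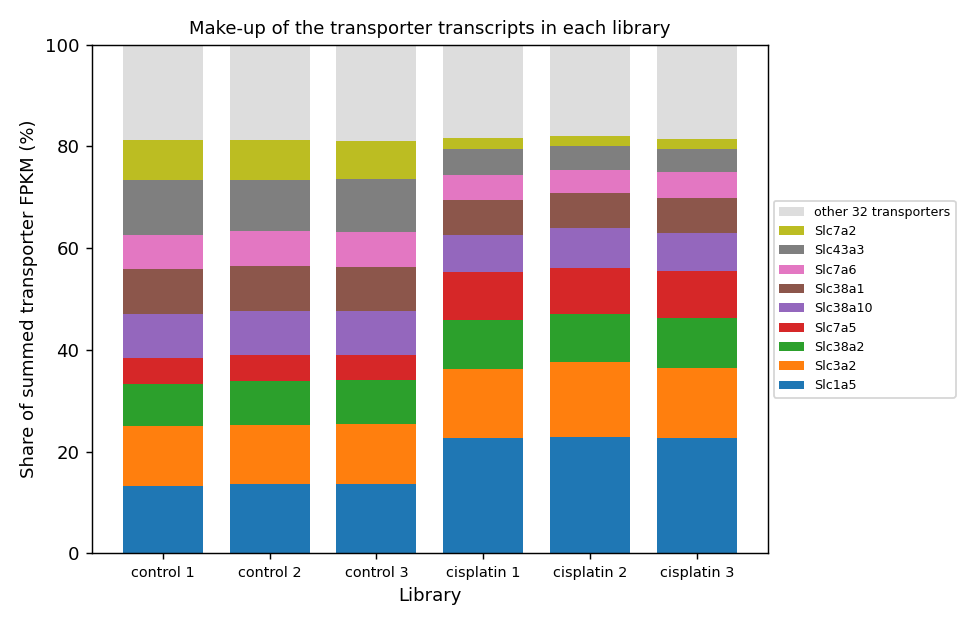
Share (%) of each transporter in the summed FPKM of the 41 transporters, 1 bar per library, control on the left and cisplatin on the right. The blue (Slc1a5) and red (Slc7a5) pieces are larger and the dark grey (Slc43a3) and olive (Slc7a2) pieces smaller in the 3 cisplatin libraries.

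The other 19 genes had a mean under 0.5 FPKM and were not tested in the main comparison. Of these, 4 had 0 reads in all libraries and 11, including those 4, had at most 10 rebuilt reads in every library. All 5 carriers of acidic amino acids were among the 19. EAAT3 (Slc1a1), a carrier of glutamate and aspartate, had 10, 6 and 13 reads in control and 32, 49 and 61 with cisplatin. In the GENCODE M21 annotation its exons cover 8257 bases and share 2631 bases with 4430402I18Rik on the other strand. The deposited length is 6170 bases, so the overlap of the exons that were counted may differ, and these reads are uncertain. EAAT2 (Slc1a2), the glutamate carrier of glia, had 103, 123 and 87 reads in control and 76, 50 and 32 with cisplatin. For both genes the groups did not overlap. The other acidic carriers were Slc1a3, with 3 to 26 reads in a library, Slc1a6, with at most 1, and Slc1a7, with at most 3. Slc38a11 had 4 to 6 reads in 5 libraries and 29 in control replicate 3. The proton-coupled carriers Slc36a2 and Slc36a3 had 0 to 8 and 1 to 17 reads, Slc38a8 had 0 to 14, and Slc7a14, a lysosomal relative of the CAT carriers, had 0 to 6, with no separation of the groups.
Slc7a15, a light chain known as Arpat, had 54, 38 and 19 reads in control and 0, 0 and 2 with cisplatin. Taken over the groups and scaled to the reads on genes, control was 56.6 times cisplatin, with a 95% exact interval of 15.3 to 473 that covers counting error only. The antisense gene 5033421B08Rik overlaps Slc7a15 in introns and had 1.12 FPKM in control and 0.0244 FPKM with cisplatin. Slc7a4, a relative of the CAT carriers, had 75, 89 and 39 reads in control and 24, 35 and 34 with cisplatin, where again no library of the groups overlapped. With limma's voom on the rebuilt reads, which tests 28 of the 42 genes, Slc7a15 (log2 fold change -5.35), Slc1a2 (-1.08) and Slc7a4 (-1.07) were called lower and Slc1a1 (2.22) higher, beside the 3 genes called on FPKM. In all this gave 5 members called lower and 2 higher, where 13.1% and 6.08% of all 18541 genes tested were called.

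Other genes of amino acid transport and use were counted in 3 lists, to be read against the 29.0% of all tested genes that fell and the 27.5% that rose, and the 12.8% called lower and 4.11% called higher. As for the members, the balance of directions depended on scaling in each list. Of 30 names listed for amino acid transporters outside the 6 families, Slc66a1 is a newer name of Pqlc2. The deposited data used the older name, which was also listed and tested. In all, 16 of the names were tested. Of these, 6 fell and 7 rose, with a median log2 fold change of 0.16. On the T-centred scale 10 fell and 0 rose. The 3 called genes were lower. They were the taurine carrier Slc6a6, which fell from 61.7 ± 1.67 to 25 ± 0.440 FPKM (log2 fold change -1.30), the mitochondrial aspartate-glutamate carrier Slc25a13 (-1.47) and the glycine carrier Slc6a9 (-1.06), whose level was under 5 FPKM.
Of 39 names listed for amino acid sensing and mTORC1, 2 (Gatsl2 and Gatsl3) are older names of Castor2 and Castor1. The deposited data used the newer names, which were also listed and tested. In all, 37 of the names were tested. Of these, 9 fell and 9 rose (median log2 fold change 0.05). On the T-centred scale 32 fell and 1 rose, and with quantile normalization 8 fell and 17 rose. Called lower were Eif4ebp1, the translation repressor that mTORC1 phosphorylates, which fell from 61.1 ± 3.09 to 19.5 ± 1.01 FPKM (log2 fold change -1.64), and the mTOR inhibitor Deptor (-1.95), at under 5 FPKM. The transcript of ATF4, the factor that induces many amino acid transporters when amino acids are short, had 57.9 ± 3.20 FPKM in control and 61.1 ± 1.48 FPKM with cisplatin (SD, n = 3 each; log2 fold change 0.08, limma adjusted p = 0.19).
Of 34 enzymes of amino acid synthesis and breakdown, 29 were tested, and 10 fell and 10 rose (median log2 fold change 0.07). On the T-centred scale 21 fell and 3 rose. Glutamine synthetase (Glul) fell from 43 ± 0.647 to 19.1 ± 1.19 FPKM (log2 fold change -1.16), and arginase 1 (Arg1) from 11.8 ± 0.840 to 5.74 ± 0.651 FPKM (log2 fold change -1.03). Glutaminase 2 (Gls2) was also called lower (-1.28), at under 5 FPKM. Ornithine decarboxylase (Odc1), which makes the polyamine putrescine, rose from 26.3 ± 0.95 to 53.9 ± 1.11 FPKM (log2 fold change 1.03), and the serine hydroxymethyltransferase Shmt1 from 3.81 ± 0.199 to 7.76 ± 0.742 FPKM (log2 fold change 1.0). These were the 2 enzymes called higher. Their count was 1 with median-of-ratios scaling, with a pseudocount of 1, and without cisplatin replicate 1 or control replicate 2. It was 0 on the T-centred scale, 3 with any FPKM above 0 and 5 with voom. The 3 enzymes called lower numbered 1 with a pseudocount of 1 and 8 on the T-centred scale. They numbered 2 with quantile normalization, with voom, with the filter of 5 FPKM, and without cisplatin replicate 1 or control replicate 1.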

How the data were processed

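RNA of 6 libraries was sequenced after selection of polyadenylated RNA with poly-T beads. The authors deposited FPKM per gene, made after reads with adaptors, low quality or unknown bases had been removed. The submitters' processing notes name fastp, HISAT2 2.0.5, featureCounts 1.5.0-p3 and mm10, while the methods of the study name LifeScope. Strand and the handling of reads that match several genes are not given in the sources used here. Coordinates were those of GENCODE M21 (GRCm38) for 41 of the 42 members. The gene length, in bases, was used as deposited. Shared exonic bases were computed on GENCODE M21 exons, whose length differed from the deposited one for Slc1a1 (8257 against 6170) and Slc3a1 (2271 against 2307). The table held 0 columns of other samples.
Multiplying FPKM by length gave whole multiples of a step for 100% of values above 0 (tolerance 0.1 read), and reads were rebuilt from it. Depth was 30606569 to 32169496 reads, and 3 reads was taken as the floor. The authors' library factor was 1.03 to 1.05 times these reads in cisplatin and 0.976 to 0.982 times in control libraries.
Groups and replicate numbers came from the sample labels. The deposited values are FPKM, so the main test was on a log scale, with voom on the rebuilt reads as the alternative on counts. For the main test limma 3.58.1 (R 4.3.3; lmFit, eBayes with trend) was run on log2(FPKM + 0.1) and tested on simulated data. Replicate libraries differed by more than sampling noise (chi-square per degree of freedom 5.35 to 6.44). Members, lists and ratios were chosen with earlier results of these data known. Any member could be named, and of the lists the called genes with at least 5 FPKM, at most 3 per direction. Slc6a9, Deptor, Gls2 and Atf4 were named after their values were seen. Values in every library were given for members called or with at least 10 FPKM in a group. ID8, T-cell, B-cell and myeloid markers were lists of known marker genes. Alternatives were other pseudocounts, filters and scalings, no variance trend, limma's voom on rebuilt reads, protein-coding genes alone, leaving out each library, and a replicate block. Tables were handled with python 3.11.15, pandas 2.3.3, numpy 2.4.6 and scipy 1.17.1, and figures with matplotlib 3.10.9.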

Additional observations from a re-analysis of the deposited data

How the results depend on the processing

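The members called lower (2) numbered 1 with quantile normalization and 5 both on the T-centred scale and with limma's voom on rebuilt reads. The members called higher (1) numbered 0 with a pseudocount of 1, with a filter of 5 FPKM and after the centring, and 2 with any FPKM above 0, with quantile normalization and with voom. By limma 8 members fell and 8 rose. The centring gave 16 and 3, voom gave 13 that rose and the filter of 5 FPKM gave 4 that rose, since fewer genes were then tested. The centring reversed Slc3a2 (-0.32), Slc38a2 (-0.40), Slc38a9 (-0.19), Slc36a1 (-0.50), Slc43a2 (-0.51) and Slc7a6os (-0.47). It also brought Slc38a7 (-0.73), Slc38a6 (-0.77) and Slc7a3 (-0.65) past the test. It lowers every gene alike, so these reversals follow from its construction. Quantile normalization and voom each brought Slc3a1, Slc43a2, Slc36a1 and Slc7a6os past the test as higher. Slc3a1 also passed among protein-coding genes alone. Slc7a3 reversed with quantile normalization (0.10), with voom (0.012) and without control replicate 2 (0.018), and the other libraries left out in turn gave values down to -0.13. Leaving out each library in turn left 2 called lower and 1 called higher, 8 that fell and 7 to 8 that rose. Only the replicate numbers could pair the libraries, and their deviations correlated by -0.06 to 0.02 between libraries of the same number, so they were not taken as pairs. The replicate block left 2 called lower, 1 called higher, 8 that fell and 8 that rose, and changed no call. The median log2 fold change of all tested genes was 0.03 as deposited, 0.16 with quantile normalization and -0.55 after the centring. Depth limits the 11 members with at most 10 reads in every library, for which no fold change is given.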
